A study of Mus musculus with 2 samples.

Results

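Transcripts of 10 genes of the circadian clock were compared in small intestine between wild-type mice and mice with an IL-9 transgene. The genes were Arntl, Clock and Npas2 on the activating side of the clock, Per1, Per2, Per3, Cry1, Nr1d1 and Nr1d2 on the repressing side, and Dbp as an output factor. They were chosen by name, as every probe set annotated to them, which gave 24 probe sets for 10 of the 18194 genes named on the array. A probe set is a group of short probes designed against a transcript, and some can match several. The deposited values are intensities on a linear scale, processed with RMA, a method that corrects background, equalises the arrays and combines the probes within each set.

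The groups were mice with the IL-9 transgene (IL-9Tg, 1 pool of 3 animals) and wild-type mice (WT, also 1 pool of 3), both on the BALB/c background, both 6 to 8 weeks old and both without treatment. IL-9 is a type 2 cytokine that promotes the growth of mast cells. Total RNA from each pool was hybridised to 1 Affymetrix mouse array, in a series on how mast cells and gut permeability bear on sensitivity to oral antigen. The labels give neither the promoter that drives the transgene nor the hour at which the tissue was collected. With 1 array in each group no spread between mice can be estimated, no p-value is given, and differences between genotypes, between pools and between collections cannot be told apart.

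The clock is a feedback loop of transcription that runs in most cells, those of the gut epithelium included. CLOCK, or its paralog NPAS2, pairs with BMAL1, the product of Arntl, and the pair binds E-box elements to switch on the Per, Cry, Nr1d and Dbp genes. PER and CRY proteins then inhibit that pair, while the nuclear receptors encoded by Nr1d1 and Nr1d2 (REV-ERB alpha and beta) repress Arntl, Clock and Npas2 through ROR response elements. As a result, Arntl and Npas2 transcripts peak at about the opposite time of day from those of Nr1d1, Dbp and Per3, and the phase of the gut clock follows feeding.

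The elements of this loop can be read in the RefSeq promoter table (mouse build GRCm38.p6), which held 9 of the 10 genes, Per2 being the exception. The motifs searched, on both strands, were the E-box CACGTG, the D-box TTATGTAA, which DBP and its relatives bind, and a pair of ROR response elements that differ in the bases before their common core. The motifs overlap nowhere in these stretches. Within the 250 bases before the transcript start, 3 of the 9 genes held a match. These stretches are printed here, with the 30 bases around a match in Arntl just after the start, because they are the kinds of sites through which factors of the loop are known to act. Capitals mark the motif.
Per1 (E-box; chr11:69098757-69098814, plus strand): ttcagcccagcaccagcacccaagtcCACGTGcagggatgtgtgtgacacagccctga
Cry1 (E-box; chr10:85185083-85185140, minus strand): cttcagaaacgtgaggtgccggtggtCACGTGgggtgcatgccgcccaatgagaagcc
Per3 (2 D-boxes; chr4:151044790-151044896, minus strand): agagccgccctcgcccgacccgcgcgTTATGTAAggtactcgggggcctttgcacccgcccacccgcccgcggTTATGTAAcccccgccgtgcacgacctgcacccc
Arntl (ROR response element; chr7:113207528-113207557, plus strand): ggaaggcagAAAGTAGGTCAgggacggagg
The Per1 E-box begins 166 bases and the Cry1 E-box 60 bases before the start, and the Per3 D-boxes begin 205 and 158 bases before it. The table held 13 windows for the 9 genes, as some have several starts. Per1 and Arntl have 2 windows each. In both genes the match belongs to a start inside the gene, and the other window held none. Of 32851 promoters in the table, 6.02% held CACGTG and 0.819% held TTATGTAA in the 250 bases before the start. The element found in Arntl was held by 0.0578% of the whole windows of 300 bases and the other ROR response element by 0.0183%. A match is a run of letters in a reference genome, not a measured binding site, and the missing matches elsewhere say only that these letters are not in those windows.

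The tissue and the pools were checked first. All 9 enterocyte markers (among them Vil1, Fabp2 and Apoa1) were past the expression filter, an intensity of 78.5, which is the median of all values, reached on at least 1 array. Their summed intensity was 104821 (transgenic) against 113790 (wild type). All 5 mast cell markers read higher in the transgenic pool, with a summed intensity of 5475 against 942, and the 4 B cell markers named on the array all read lower, with 489 against 883. The sums were 17456 against 17066 for 5 smooth muscle markers, 729 against 486 for 3 adipocyte markers, 493 against 497 for 4 exocrine pancreas markers and 575 against 367 for 4 liver markers. None of these markers was at 0 on either array, but neither was any probe set, the lowest values being 5.60 (transgenic) and 5.75 (wild type). Single markers differed by more than some of these sums show: Adipoq, an adipocyte hormone, was 6.07-fold higher in the transgenic pool, and the liver genes Cyp2e1 and Apoh were 2.83-fold and 2.35-fold higher. Of these, Adipoq (91.9 against 14.3) and Cyp2e1 (106 against 37.0) read below 78.5 in the wild-type pool. The mast cell markers Cpa3 (194 against 78.3) and Fcer1a (109 against 31.0) also did so. The B cell markers Ms4a1 (74.9 against 251) and Cr2 (29.0 against 98.3) read below 78.5 in the transgenic pool. The other adipocyte and liver markers named on the array differed less. Fabp4 read 622 against 457 and Ttr 161 against 167. Lep (14.9 against 14.5) and Alb (75.3 against 63.6) were below the filter in both pools. All mast cell markers thus read higher in the transgenic pool and all B cell markers named on the array lower. All 3 adipocyte markers and 3 of 4 liver markers named on the array also read higher in it. By 2-fold, 4 mast cell and 2 B cell markers differed, against 1 adipocyte and 2 liver markers. The part of these cell types in the clock gene values was not tested. In bulk tissue, fewer cells of a type and less RNA per cell cannot be told apart. The Il9 transcript read 62.2 (transgenic) against 71.6 (wild type), below the filter in both, so it does not check the labels.

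Of the 10 clock genes, 2 differed between the pools by 1.5-fold. Npas2 was lower in the transgenic pool and Per3 was higher in it, and 0 differed by 2-fold. All 10 genes were past the filter on both arrays, so no gene entered through 1 pool alone. Of the 11863 genes past the filter, 1.68% were higher and 1.48% lower by 1.5-fold, and 0.615% were higher and 0.211% lower by 2-fold, so that a count of 0 among 10 genes at 2-fold is no result about them. Each gene is represented by the probe set that was brightest over both arrays, and differences are those of log2(intensity + 1), the transgenic minus the wild-type pool. The only repeat measurement on these arrays is between probe sets of the same gene. Among 4965 genes with more than 1 probe set past the filter, probe sets of a gene differed with an SD of 0.23 on the log2 scale. By that technical measure 6 of the 10 clock genes lay within 1 SD of 0, where 71.3% of all genes past the filter lay.

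**Figure D1:**
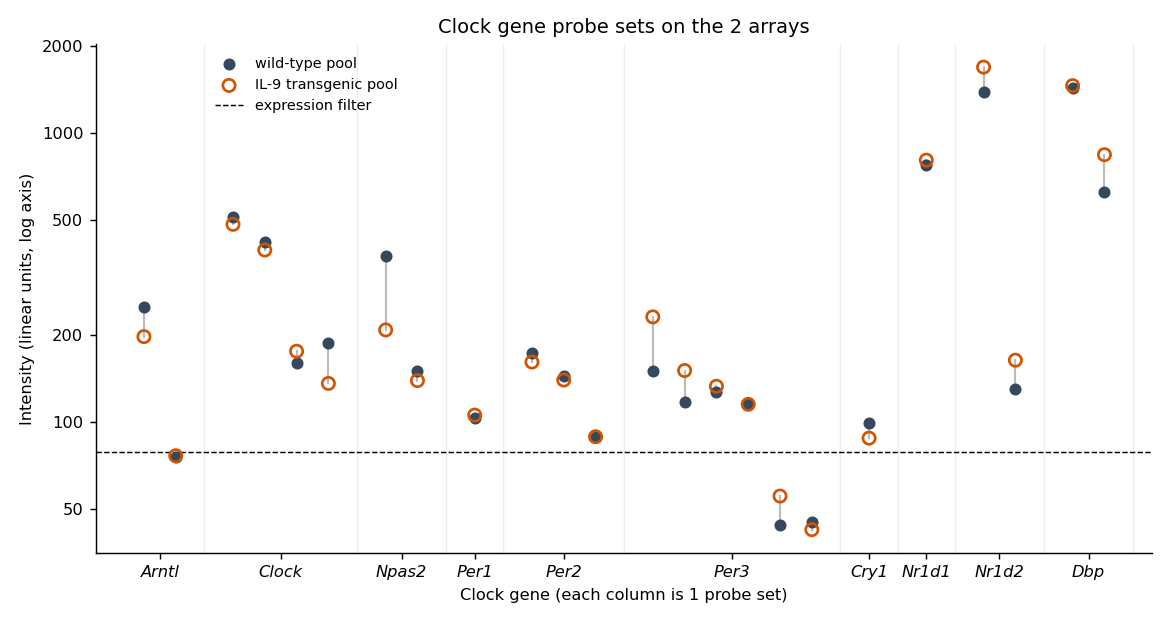
Intensity (linear units on a log axis) of each of the 24 clock gene probe sets in the wild-type pool (filled) and the IL-9 transgenic pool (open), 1 array each, with no error bars because there are no replicates; the dashed line is the filter at 78.5. Levels of different probe sets are not comparable with each other; within a column the widest gaps are in the brightest probe sets of Npas2 (208 against 376) and Per3 (231 against 150).

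All 3 activator genes read lower in the transgenic pool by their brightest probe sets, with a median log2 difference of -0.34. With 3 genes, that median is the value of Arntl, given by its brighter probe set alone. The median over all genes past the filter was 0.01, while 47.6% of them read lower and 51.4% higher. The activators ranged from -0.85 in Npas2 to -0.08 in Clock.

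Npas2 encodes the paralog of CLOCK that can take its place beside BMAL1. Its brighter probe set (1421037_at) read 208 (transgenic pool) against 376 (wild-type pool), which is 1.80-fold lower, or -0.85 on the log2 scale. Only 43 of the 11863 genes past the filter (0.362%) lay as low. The other Npas2 probe set, designed from the same transcript record, read 139 against 150, a difference of -0.11. Both probe sets were thus lower, but only the brighter by more than the SD between probe sets. A gap of 0.74 or more between probe sets was seen in 5.50% of those 4965 genes. As the mean of both probe sets, Npas2 differed by -0.48 and was no longer past 1.5-fold.

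Arntl encodes BMAL1, the partner without which the loop does not run. Its brighter probe set (1425099_a_at) read 197 (transgenic) against 250 (wild type), 1.27-fold lower, a log2 difference of -0.34. Among all genes past the filter, 6.99% lay as low. The suffix of this probe set marks probes shared by several transcripts of a gene. The other probe set, whose ID carries no such suffix, read 76.2 against 75.8, below the filter, with a difference of 0.01. The direction of Arntl therefore rests on its brighter probe set.

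Clock encodes the partner of BMAL1 that has histone acetyltransferase activity. Its brightest probe set read 483 (transgenic) against 511 (wild type), at -0.08 on the log2 scale, and the next brightest 394 against 421, at -0.10. The other 2 read 136 against 187, at -0.46, and 176 against 159, at 0.14. The 4 probe sets thus lay on both sides of 0, and the 2 brightest differed by less than the SD between probe sets.

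**Figure D2:**
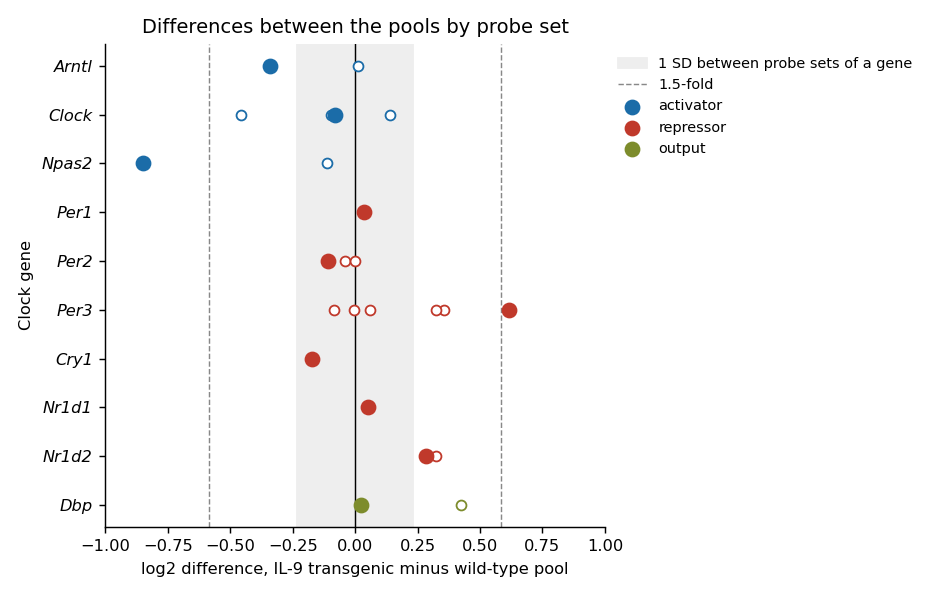
log2 difference (transgenic minus wild-type pool) of every clock gene probe set; large filled points are the brightest probe set of each gene, small open points the others, coloured by side of the loop, the grey band is 1 SD (0.23) between probe sets of a gene and dashed lines mark 1.5-fold. Only Npas2 (-0.85) and Per3 (0.62) have a point beyond the dashed lines, and in both the other probe sets lie nearer to 0.

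The 6 repressor genes lay on both sides of 0, with a median log2 difference of 0.04. Of these, 4 read higher and 2 lower in the transgenic pool, from -0.17 in Cry1 to 0.62 in Per3. The activator median minus the repressor median was -0.39 on the log2 scale. The activator median in it is the value of the brighter Arntl probe set. The 2 sides overlapped, since Per2 and Cry1 read lower by more than Clock did.

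Per3 encodes a period protein whose transcript cycles strongly in peripheral tissues but which is dispensable for the core loop. Its brightest probe set (1458176_at) read 231 (transgenic) against 150 (wild type), 1.53-fold higher, or 0.62 on the log2 scale. Among the genes past the filter, 174 (1.47%) lay as high. The next brightest read 151 against 117, at 0.36. The other 2 past the filter read 133 against 127, at 0.06, and 115 against 115, at -0.01. The 2 below the filter read 55.3 against 44.0 and 42.3 against 44.9, with differences of 0.32 and -0.08. Of the 6 Per3 probe sets 4 were therefore higher, 3 of them by more than the SD between probe sets, and their mean difference was 0.21.

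Per1 and Per2 encode the period proteins that the core loop needs, and Per1 also responds directly to glucocorticoids. Per1, with a single probe set, read 105 (transgenic) against 103 (wild type), a difference of 0.04. The brightest Per2 probe set read 161 against 174, at -0.11, the next 140 against 144, at -0.04, and the last 88.8 in both pools. No probe set of either gene differed by as much as the SD between probe sets. Within Per2 the probe sets spanned 0.11, a narrower span than in most genes, as 82.5% of genes with several had at least that range.

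Cry1 encodes a cryptochrome, a strong repressor of the activating pair. It has a single probe set, which read 87.8 (transgenic) against 99.2 (wild type), a difference of -0.17. Both values, like those of Per1, lay not far above the filter, where background signal can shrink fold changes. That effect was not tested here.

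Nr1d2 encodes REV-ERB beta, and both of its probe sets read higher in the transgenic pool. The brighter read 1694 against 1392, 1.22-fold higher, a difference of 0.28, and the dimmer 163 against 130, at 0.33. Both exceeded the SD between probe sets, and they differed from each other by 0.04. Among all genes past the filter, 10.5% lay as high. Nr1d1, which encodes REV-ERB alpha, read 806 against 778 by its only probe set, a difference of 0.05.

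Dbp encodes a PAR bZIP transcription factor that carries the rhythm to D-box genes. The brighter probe set (1438211_s_at), whose suffix marks probes that can match other transcripts, read 1461 (transgenic) against 1439 (wild type), a difference of 0.02. The other (1418174_at), which has no such suffix, read 842 against 627, at 0.42. Both lay above 0, and they differed by 0.40 on the log2 scale, a range reached by 32.1% of genes with several probe sets. The value for Dbp thus depends on the probe set, from no difference to 1.34-fold higher.

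**Figure D3:**
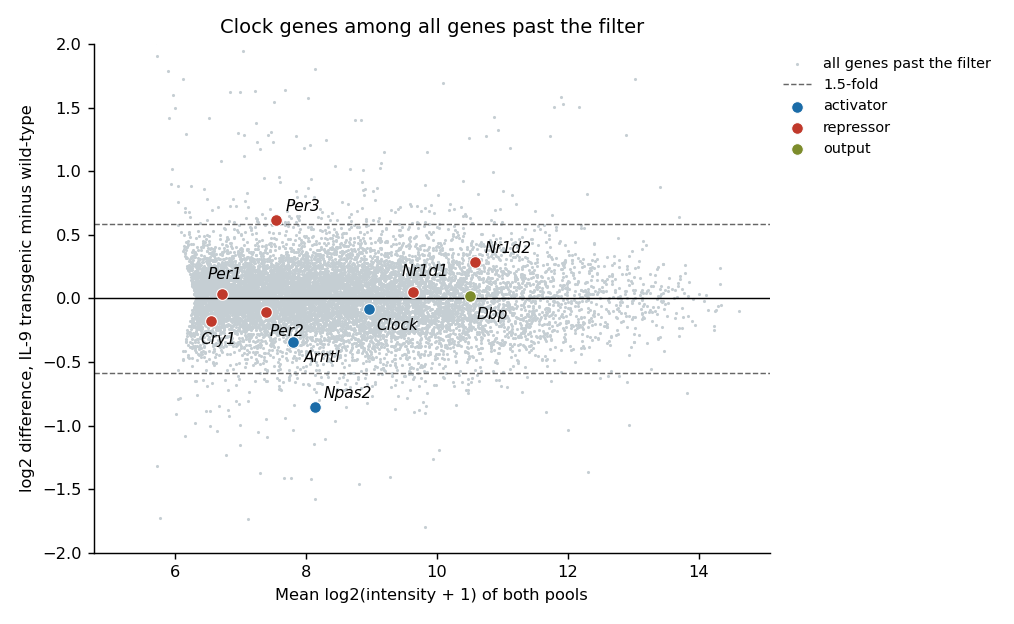
log2 difference (transgenic minus wild-type pool) against the mean log2(intensity + 1) of both pools for the genes past the filter (grey) and the 10 clock genes, coloured by side of the loop; dashed lines mark 1.5-fold and 20 genes beyond -2 or 2 are not drawn. Npas2 at -0.85 and Per3 at 0.62 lie at the rim of the grey cloud, and the other 8 clock genes within it.

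Over all 24 clock probe sets 12 read higher, 11 lower and 1 equal in the transgenic pool, with a median difference of 0.0047. The 8 activator probe sets had a median of -0.10, with 6 lower and 2 higher. Among the 14 repressor probe sets the median was 0.04, with 8 higher and 5 lower. Probe sets of the same gene share the transcript and the arrays, so they are not independent measurements.

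None of the other genes of the loop past the filter differed by 1.5-fold. Of 18 further clock genes and modulators 16 were named on the array and 13 were past the filter. Of these 13, 9 read higher, the median difference was 0.08, and 10 lay within 1 SD between probe sets of 0. With 1.68% of all genes higher and 1.48% lower by 1.5-fold, a count of 0 among 13 is near the background. The highest and the lowest were both casein kinases, which phosphorylate PER proteins. Csnk1e read 316 (transgenic) against 236 (wild type), at 0.42, with its 3 probe sets from -0.22 to 0.42. Csnk1d read 1844 against 2362, at -0.36, with its 5 probe sets from -0.36 to 0.39. Btrc, a subunit of a ubiquitin ligase that degrades PER proteins, lay at -0.30, with its 5 probe sets from -0.30 to 0.32. None of these 3 genes has probe sets of a single direction.

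The relatives and targets of the members read as follows. Tef and Hlf, the PAR bZIP relatives of Dbp, differed by 0.22 and 0.08, and every probe set of both read higher, from 0.12 to 0.46 for Tef (848 against 728 by the brightest) and from 0.08 to 0.33 for Hlf (106 against 100). Nfil3, which represses the D-box genes that Dbp activates, differed by -0.07 (101 against 106). Ciart, a repressor of the loop driven by the activating pair, differed by 0.16 (106 against 94.3). Its promoter held 3 CACGTG motifs, and the 2 Tef promoters 1 each. CACGTG also lay before the start of Bhlhe41, and of Tspan4, Slc5a1, Fkbp5, Dusp1 and Sgk1 from the output and glucocorticoid lists below. By their brightest probe sets, Sgk1 read lower, at -1.26, and the others higher, as did 51.4% of all genes past the filter. Of these, Bhlhe41 (71.6 against 65.9) was below the filter in both pools, and Dusp1, at 0.18, lay within the SD between probe sets. Slc5a1 and Fkbp5 each had a probe set that read lower, at -0.12 and -0.10. A link between the motif and the direction was not tested. Cry2, the second cryptochrome, differed by -0.09 (242 against 257), Bhlhe40, an E-box repressor, by 0.06, and Rora, an activator at the elements that the REV-ERB receptors occupy, by 0.12. By the brightest probe set of each gene, the differences of Tef, Hlf, Nfil3, Ciart, Cry2, Bhlhe40 and Rora were all under the SD between probe sets.

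Clock output genes read both higher and lower. Of 12 genes 11 were named on the array and past the filter, 0 differed by 1.5-fold, 7 read higher and the median was 0.05. Among all genes past the filter, 1.68% were higher and 1.48% lower by 1.5-fold, and 51.4% read higher. A count of 0 among 11 is thus near the background. By the mean over all probe sets of each gene, 9 of the 11 read higher and the median was 0.16. The highest was Nampt, the rate-limiting enzyme of NAD salvage, at 651 (transgenic) against 470 (wild type), 0.47, with all 3 of its probe sets higher, from 0.12 to 0.65. The lowest was Noct (nocturnin), a rhythmic phosphatase of NADP cofactors, at 483 against 692, -0.52, by its only probe set. Usp2, a ubiquitin protease with a strong rhythm in many organs, read 547 against 549, while its other probe set lay at 0.57. Among transporters of the brush border with a daily rhythm, Slc15a1, the peptide transporter, differed by -0.34 (561 against 710) and Slc5a1, the sodium-glucose transporter, by 0.27, with its other probe set at -0.12. Slc2a5, the fructose transporter, differed by 0.41 and Abcb1a, a drug efflux pump, by 0.31.

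Glucocorticoids are a further rhythmic signal to peripheral clocks, and Per1 is among their direct targets. Of 7 glucocorticoid-responsive genes, all past the filter, 1 was lower by 2-fold and 0 were higher by 1.5-fold, with 4 below 0. In the same order, the shares of all genes past the filter were 0.211%, 1.68% and 47.6%. Among 7 genes, the counts of 0 and 4 are thus near the background. The median of the list was -0.28. That median is the value of Zbtb16 (72.3 against 88.1), which passed the filter through the wild-type pool alone, and it was -0.18 over the other 6, with 3 above and 3 below 0. Over the alternatives the median ran from -0.43 (filter at the 75th percentile) to -0.05 (probe sets whose IDs mark shared probes left out). It was -0.24 with the mean over all probe sets, and -0.10 with the mean over probe sets that reach the filter value. The gene lower by 2-fold was Sgk1, a kinase that regulates ion transport, at 634 (transgenic) against 1522 (wild type), -1.26. Tsc22d3 (GILZ), also a rhythmic gene in many organs, read 338 against 486, -0.52, with its 4 probe sets from -0.56 to 0.04. Cebpd read 220 against 296, -0.43, with its other probe set at -0.04. Fkbp5, a co-chaperone of the glucocorticoid receptor, lay at 0.26 by its brightest probe set (219 against 182), with its 3 probe sets from -0.10 to 0.26. Dusp1 lay at 0.18, and Klf9 at 0.07 with its probe sets from -0.25 to 0.52. The genes of this list did not share a direction, and Per1 at 0.04 lay near neither end.

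**Figure D4:**
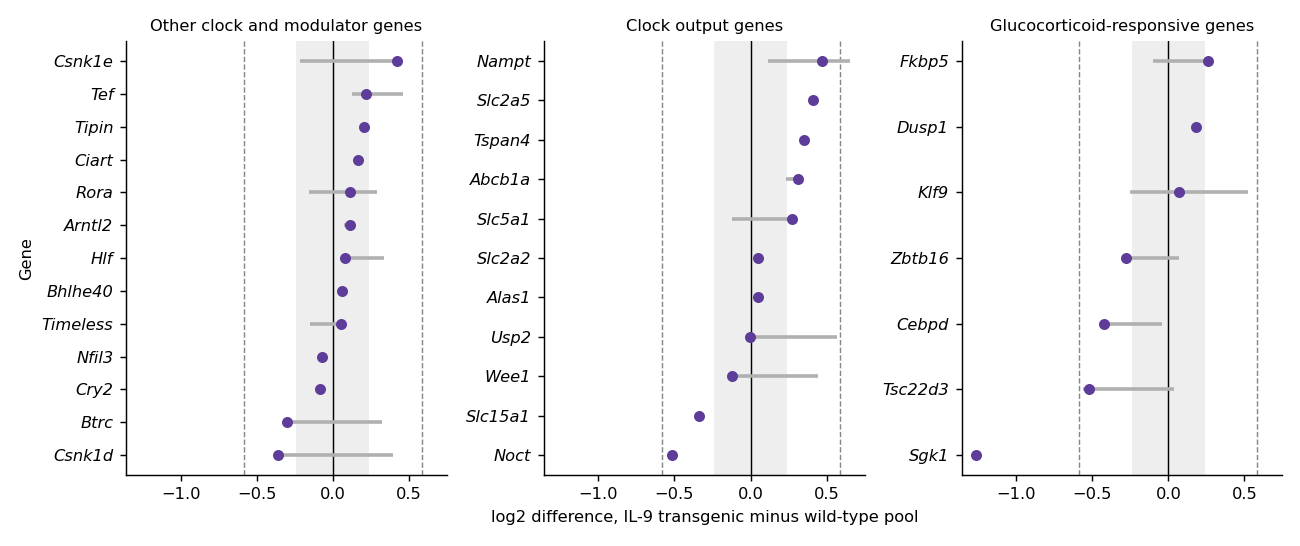
log2 difference (transgenic minus wild-type pool) of the genes past the filter in 3 related lists; points are the brightest probe set of each gene, grey bars run from its lowest to its highest probe set, the grey band is 1 SD (0.23) between probe sets of a gene and dashed lines mark 1.5-fold. Sgk1 at -1.26 is the only point beyond 1.5-fold, and the bars of Csnk1d, Csnk1e and Btrc are among those that cross 0.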

How the data were processed

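Intensities of 45101 probe sets on 2 arrays, 1 for each pool, were deposited by the authors on a linear scale. The submitters' processing notes name RMA. Its version, the genome build and the chip annotation were not given in the sources used here. Median intensities were 78.7 (transgenic) and 78.3 (wild type). RMA equalises the arrays, so a shift shared by most genes could not be seen, and it gives no detection calls. The number of arrays limits the precision.

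Gene names came from a platform annotation table (34958 probe sets with 1 symbol, 932 with several, 9211 with none; only the first kind was used) and all 10 Entrez identifiers matched the RefSeq table of GRCm38.p6. Differences are of log2(intensity + 1), computed with pandas 2.3.3 and numpy 2.4.6, with 1.5-fold and 2-fold as sizes of difference. The procedure was tested on simulated data with planted differences larger than that of any clock gene. That test does not show how well differences near 1.5-fold are recovered. The members and lists were chosen with earlier results of these data known. Genes named were the 10 clock genes and, from each related list, those past 1.5-fold and the highest and lowest. Other list members were named for their role after their values were seen. The alternatives changed the pseudocount, probe set choice, scaling and filter.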

Additional observations from a re-analysis of the deposited data

How the results depend on the processing

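Over 11 alternatives, 9 planned and 2 (the mean over probe sets that reach the filter value, and the filter on both arrays) chosen after seeing the data, every clock gene with a value kept its direction except Arntl, at 0.0093 when probe sets whose IDs mark shared probes were left out. That setting left Cry1 without a value and put Dbp at 0.42. No clock gene was past 2-fold under any alternative. The number of clock genes higher by 1.5-fold was 0 in place of 1 with a pseudocount of 16, with the filter at the 75th percentile (5 clock genes left, Per3 not among them) and with either mean over probe sets. The number lower by 1.5-fold was 0 in place of 1 with either mean, where Npas2 lay at -0.48 and Per3 at 0.21 and 0.26. The activator median ran from -0.47 to -0.17 and the repressor median from 0.04 to 0.17. In the settings that gave -0.47, Arntl was not past the filter, and the median was over Clock and Npas2 alone. These were the setting without probe sets whose IDs mark shared probes and the filter at the 75th percentile. With the latter, the repressor median was over Nr1d1 and Nr1d2 alone. The difference between the activator and repressor medians ran from -0.63 (filter at the 75th percentile) to -0.21. Genes lower by 1.5-fold numbered 175, or 93 and 110 with the means, where 63.3% of the genes past 1.5-fold were higher under the added mean and 53.2% as reported. Genes lower by 2-fold numbered 25, or 15 with the filter at the 75th percentile. No paired analysis was possible because each group holds 1 array.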
